A study of Homo sapiens with 27 samples.

Results

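The mRNA levels of 9 genes that carry glucose into cells, make lactate and pyruvate from each other, and carry lactate across the plasma membrane were followed in prostate cancer cells with and without knockdown of *CPSF1*. The genes are a list named by function, by a rule that uses no measured value, among 20268 protein-coding gene symbols. The list was chosen with earlier results of these data known, so that counts of members beside shares of all genes are descriptions. They are the glucose transporter genes *SLC2A1*, *SLC2A3*, *SLC2A10* and *SLC2A12*, the monocarboxylate transporter genes *SLC16A1* and *SLC16A3*, the chaperone gene *BSG*, and the lactate dehydrogenase genes *LDHA* and *LDHB*.

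Poly(A) RNA was sequenced from 3 human prostate cancer cell lines, the hormone-sensitive line LNCaP and the hormone-insensitive lines LNCaP95 and 22Rv1. The lentivirus used for transduction carried a non-targeting hairpin (CTRL sh) or a hairpin that targets *CPSF1*, of which there were 2 (CPSF1 sh1, CPSF1 sh2), so that every group, the controls included, carried a lentiviral hairpin and had been through puromycin, at 2 µg/mL for LNCaP and 22Rv1 and 1 µg/mL for LNCaP95. LNCaP and 22Rv1 cells were kept in RPMI medium and LNCaP95 cells in RPMI without phenol red, each with 10% FBS, and expanded infected cells were grown for 72 h after 500000 had been seeded per well. The 9 groups of 3 libraries were labelled BR1 to BR3, with no word on what separates the replicates, so that p-values measure the spread between these libraries.

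*CPSF1* encodes a large subunit of the cleavage and polyadenylation specificity factor, which recognises the poly(A) signal near the end of a transcript and directs its cleavage. Glucose enters cells by facilitated diffusion through the GLUT proteins of the SLC2A family, and pyruvate at the end of glycolysis is reduced to lactate by lactate dehydrogenase, a tetramer of A and B subunits. Lactate leaves or enters with a proton through the monocarboxylate transporters MCT1 (*SLC16A1*) and MCT4 (*SLC16A3*), which need basigin (*BSG*) to reach the cell surface. Fast-growing tumour cells commonly use glucose in this way even with oxygen present, and *SLC2A1*, *SLC16A3* and *LDHA* are textbook targets of the hypoxia-inducible factors.

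A library held 8515624 to 15904518 counts on genes (median 11058723), and replicates varied by a biological coefficient of variation of 4.95% (LNCaP), 7.09% (LNCaP95) and 6.08% (22Rv1). All 8 luminal prostate markers examined, among them *KLK3*, lay over 2 CPM (counts scaled to a common library depth) in every library, whichever the line, and no basal or leukocyte marker did. *COL1A1* was the only fibroblast marker above that level in each line, and *VWF* the only endothelial one, in LNCaP. The summed luminal markers were 4402 to 4506 CPM with CTRL sh and 3272 to 3555 CPM with CPSF1 sh in LNCaP, 5853 to 6093 and 4111 to 4350 CPM in LNCaP95, and 2810 to 2827 and 2668 to 2926 CPM in 22Rv1. In LNCaP the endothelial sum (22.3 to 28.0 CPM with CTRL sh, 9.23 to 12.6 CPM with CPSF1 sh) and the fibroblast sum (23.5 to 27.3 and 14.7 to 17.6 CPM) were also lower without overlap, the basal sum was higher (1.26 to 2.11 and 3.76 to 6.24 CPM), and *TP63*, *COL1A2* and *DCN* were at 0 in every library. In LNCaP95 the endothelial sum was higher without overlap (0.675 to 1.24 and 1.69 to 4.33 CPM). The part of these shifts in the results below was not tested, and in bulk RNA fewer cells of a type and less RNA per cell cannot be told apart. The targeted gene *CPSF1* was lower in the 6 CPSF1 sh libraries than in the 3 CTRL sh libraries of each line without overlap, with log2 fold changes of -0.65, -0.89 and -0.50 in LNCaP, LNCaP95 and 22Rv1.

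Since *CPSF1* acts at the ends of transcripts, the last 50 bases of each gene as annotated were searched on its own strand for the poly(A) signal AATAAA and its common variant ATTAAA. The signal AATAAA stood there in 6 of the 9 genes, and neither hexamer in *SLC2A12*, *SLC16A3* or *LDHA*. Over 20232 genes placed in the same way, 69.5% held either hexamer and 56.6% held AATAAA. The 6 sites are shown 5′ to 3′ with the hexamer in capitals, on the strand of the gene and in GRCh37 coordinates, because they are where the annotated messages of these genes end.
SLC2A1, chr1:43391052-43391081, minus strand: aatactggaggaAATAAAacaccaaagata
SLC2A3, chr12:8071826-8071855, minus strand: ttttaaAATAAAaattctgaatgtacacga
SLC2A10, chr20:45364936-45364965, plus strand: atatttacAATAAAgagtatttacAATAAA
SLC16A1, chr1:113454469-113454498, minus strand: ctgaaaaAATAAAagtaaagcaagtataaa
BSG, chr19:583459-583488, plus strand: cgccacAATAAAgatcgcccccacctccac
LDHB, chr12:21788276-21788305, minus strand: tgaacaAATAAAattaactattgtagtgtg

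A hexamer in the window, or its absence, is a description of the annotated end and not a measured cleavage site.

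The start sites were described in the same way from RefSeq promoter windows of 300 bases (250 before and 50 after the start, build GRCh38.p14), which matched 7 of the 9 genes by symbol. *SLC2A3* and *SLC16A1* were not matched. The windows were searched on both strands for ACGTG and GCGTG, the core letters of the hypoxia response element, which overlap the E-box CACGTG. At least 1 match stood in 48.4% of 35116 windows of this length and at least 6 in 0.923%. The first *LDHA* window held 6 matches, which include 2 of CACGTG, each counted on both strands. The second of 2 *BSG* windows also held 6, the 5 *SLC16A3* windows held 0 to 3, the single windows of *SLC2A1*, *SLC2A10* and *LDHB* held 1 each, and that of *SLC2A12* held none. The richest windows of *LDHA* and *BSG* are shown because they hold the most matches among these genes, and those of *SLC16A3* and *SLC2A1* because these are the other textbook hypoxia targets on the list. Capitals mark the matches on either strand.
LDHA, chr11:18394313-18394612, plus strand: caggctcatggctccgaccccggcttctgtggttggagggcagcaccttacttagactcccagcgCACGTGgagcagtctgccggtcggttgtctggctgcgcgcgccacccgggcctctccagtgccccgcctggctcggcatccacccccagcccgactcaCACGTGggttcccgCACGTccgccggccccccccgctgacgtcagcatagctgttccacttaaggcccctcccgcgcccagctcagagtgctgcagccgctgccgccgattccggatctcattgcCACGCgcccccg
BSG, chr19:572346-572645, plus strand: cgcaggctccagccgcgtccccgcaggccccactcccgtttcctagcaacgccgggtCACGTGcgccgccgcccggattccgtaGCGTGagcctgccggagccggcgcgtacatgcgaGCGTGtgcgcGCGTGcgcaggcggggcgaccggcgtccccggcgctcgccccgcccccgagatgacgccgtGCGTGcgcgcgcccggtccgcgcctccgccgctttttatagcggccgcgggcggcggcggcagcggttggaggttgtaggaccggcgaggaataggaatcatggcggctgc
SLC16A3, chr17:82234649-82234948, plus strand: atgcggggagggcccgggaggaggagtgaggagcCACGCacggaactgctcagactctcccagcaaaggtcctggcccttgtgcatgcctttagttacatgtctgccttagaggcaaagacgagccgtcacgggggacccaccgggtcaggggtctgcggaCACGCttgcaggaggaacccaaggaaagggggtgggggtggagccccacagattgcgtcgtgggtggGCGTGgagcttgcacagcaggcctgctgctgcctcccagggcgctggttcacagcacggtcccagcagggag
SLC2A1, chr1:42958819-42959118, minus strand: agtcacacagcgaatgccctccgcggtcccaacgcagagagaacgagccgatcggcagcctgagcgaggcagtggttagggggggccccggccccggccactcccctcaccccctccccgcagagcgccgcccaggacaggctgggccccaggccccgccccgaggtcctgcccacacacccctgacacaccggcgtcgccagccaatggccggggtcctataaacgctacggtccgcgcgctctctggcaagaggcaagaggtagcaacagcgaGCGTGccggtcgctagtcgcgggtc

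The matches are letters in a window and not sites of binding.

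To learn how the cell lines were set without *CPSF1* knockdown, levels were compared per exon length in the CTRL sh libraries. The unit was RPKM, the normalized reads per kilobase of exon at a common depth. LNCaP95 also differed from the other lines in medium and puromycin dose. In its comparisons with them, line and culture cannot be told apart. *LDHA*, *LDHB* and *BSG* were the 3 most abundant of the 9 messages in each line. *LDHA* led in LNCaP (301.3 ± 9.45 RPKM, SD, n = 3) and LNCaP95 (439 ± 6.53 RPKM), whereas *LDHB* led in 22Rv1 (386.6 ± 17.0 RPKM). *BSG* was nearly level, at 192.6 ± 2.35, 198.3 ± 10.2 and 192 ± 3.03 RPKM in LNCaP, LNCaP95 and 22Rv1.

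**Figure D1:**
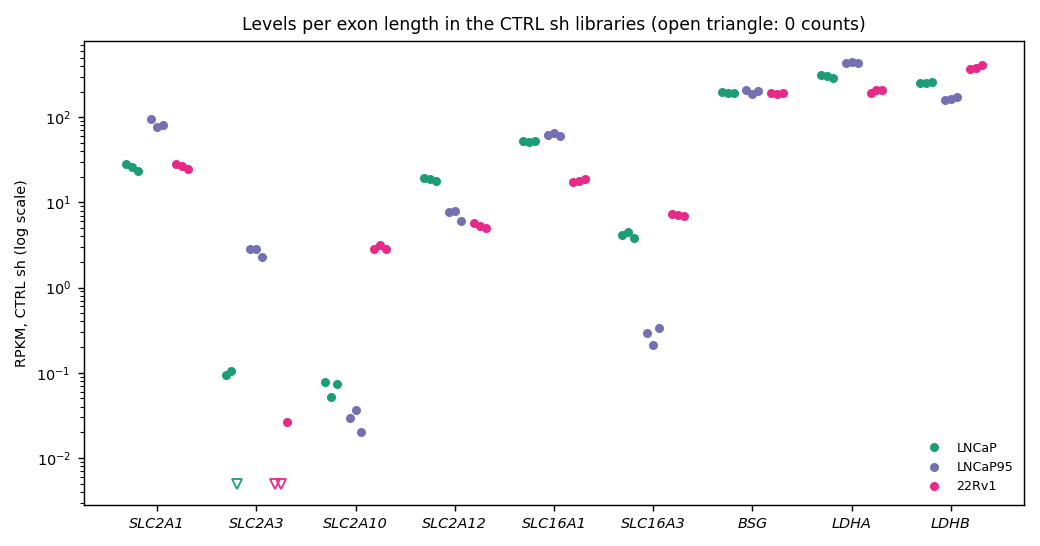
RPKM on a log axis of the 9 genes in the 3 CTRL sh libraries of each line, 1 point per library, with open triangles for libraries with 0 counts set at the foot of the axis. *BSG* sat between 187 and 206 RPKM in all 9 libraries, while *SLC16A3* was lowest in LNCaP95 and *SLC2A10* was well above the floor only in 22Rv1.

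*SLC2A1*, which encodes the widespread basal transporter GLUT1, was 25.8 ± 2.30 RPKM in LNCaP, 84.2 ± 9.42 RPKM in LNCaP95 and 26.4 ± 1.87 RPKM in 22Rv1. *SLC2A12*, which encodes GLUT12, was 18.6 ± 0.662 RPKM in LNCaP, 7.20 ± 0.986 RPKM in LNCaP95 and 5.36 ± 0.379 RPKM in 22Rv1. *SLC2A1* accordingly made up 57.8% of the summed RPKM of the 4 SLC2A genes in LNCaP, 89.5% in LNCaP95 and 76.0% in 22Rv1, and *SLC2A12* made up 41.8%, 7.68% and 15.4%. The other SLC2A genes were read in 1 line each above this trace level. *SLC2A10*, which encodes GLUT10, had 2.96 ± 0.208 RPKM in 22Rv1 and under 0.1 RPKM in the other lines, and *SLC2A3*, which encodes the high-affinity transporter GLUT3, had 2.65 ± 0.326 RPKM in LNCaP95 and at most 0.106 RPKM in a library of the others. In LNCaP the ranges of *SLC2A10* and *SLC2A3* overlapped, and every other pair of neighbours in the order of levels was separate in its 3 libraries in each line.

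In one edgeR fit of all 27 libraries, 6 of the 9 genes were above 2 CPM throughout and could be tested. Between LNCaP95 and LNCaP, 5 of the 6 differed at an adjusted p-value below 0.05, where 76.1% of the 10317 genes tested did. *SLC2A1* was 3.27-fold higher in LNCaP95 (log2 difference 1.71, SE 0.0917, adjusted p = 2.03e-16), *LDHA* was 1.46-fold higher and *SLC16A1* 1.19-fold higher, whereas *SLC2A12* was lower (log2 difference -1.37) and *LDHB* was lower (-0.62). Between 22Rv1 and LNCaP, 4 of 6 differed, beside 78.7% of all genes. *LDHB* was 1.53-fold higher in 22Rv1, while *SLC16A1*, *SLC2A12* and *LDHA* were lower by log2 differences of -1.53, -1.79 and -0.57, and *SLC2A1* was not called (0.04, 95% interval -0.15 to 0.23). Between 22Rv1 and LNCaP95, 5 of 6 differed, beside 81.4%, with *LDHB* 2.35-fold higher and *SLC2A1*, *SLC16A1*, *LDHA* and *SLC2A12* lower by -1.67, -1.79, -1.11 and -0.43. The last of these, for *SLC2A12*, was lost without LNCaP95 CTRL sh replicate 1 or 2 or 22Rv1 CTRL sh replicate 3 (adjusted p up to 0.0653). *BSG* was called in none of the 3 comparisons, with intervals that together span -0.16 to 0.15 on the log2 scale. These shares of called members were near those of all genes.

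*SLC16A3*, which encodes the lactate exporter MCT4, was under 2 CPM in LNCaP95 and entered only with edgeR's filterByExpr, which keeps weaker genes. There *SLC16A3* was lower in LNCaP95 than in LNCaP by a log2 difference of -3.88 (adjusted p = 7.46e-15), where 68% of genes differed, and higher in 22Rv1 than in LNCaP by 0.72 (adjusted p = 0.000132), where 78.2% differed. It was higher in 22Rv1 than in LNCaP95 by 4.60 (adjusted p = 2.10e-17), where 80.6% differed. *SLC2A10* and *SLC2A3* passed this filter only through the line in which each was read, and are given by their counts summed over the 3 CTRL sh libraries. *SLC2A10* had 463 counts in 22Rv1, 11 in LNCaP and 5 in LNCaP95, and *SLC2A3* had 376 in LNCaP95, 9 in LNCaP and 1 in 22Rv1.

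The knockdown was compared within each line, with 6 CPSF1 sh libraries against 3 CTRL sh libraries, for genes that passed 2 CPM in each of the 9. In LNCaP, 7 of the 9 genes passed this filter. Of these, 5 were lower, where 31% of the 11096 genes tested were, and 1 was higher, where 31.1% were. In LNCaP95, 6 passed, 4 were lower beside 33.7% of 11143 genes, and 1 was higher beside 33.2%. In 22Rv1, 8 passed, 3 were lower beside 14.3% of 11728 genes, and the other 5 were not called, of which *BSG* alone lay above 0, where 12.7% of genes were higher. The tested members had a median log2 fold change of -0.43 for LNCaP, -0.54 for LNCaP95 and -0.21 for 22Rv1, beside -4e-04, 0.0013 and -0.0024 for all genes tested. Of the 9 genes, *LDHA* alone was lower in all 3 lines in these tests.

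**Figure D2:**
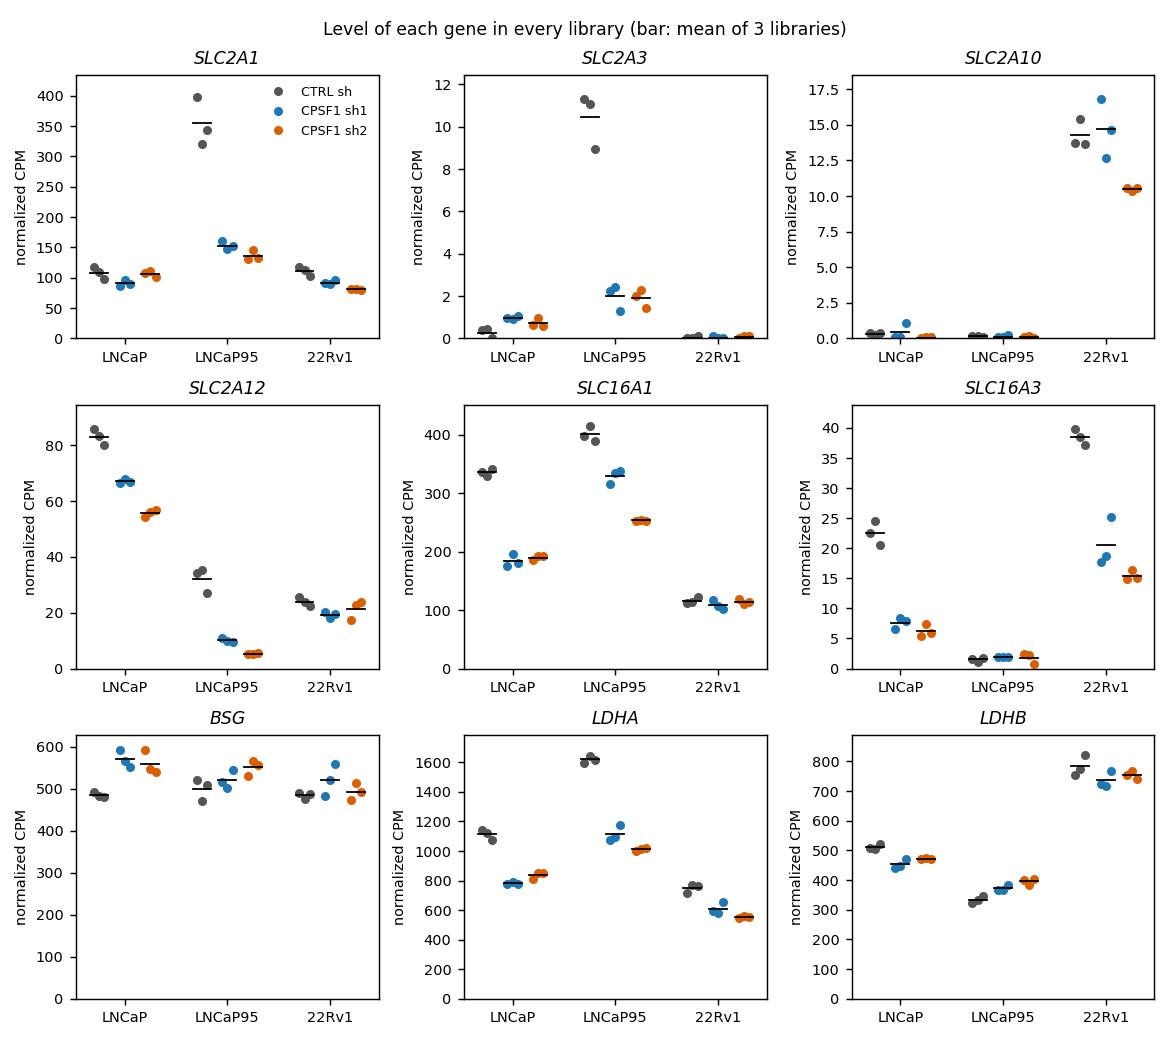
Normalized CPM of each gene in all 27 libraries, 1 point per library and a bar at the mean of 3, with a linear axis from 0 in each panel. In every line the *LDHA* points of both CPSF1 hairpins lie below those of CTRL sh. Relative to CTRL sh, the *SLC2A1*, *SLC2A3* and *SLC2A12* points drop furthest in LNCaP95.

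Among the glucose transporters, the largest changes were in LNCaP95. *SLC2A1* (chromosome 1, 43391052 to 43424530, GRCh37, as are all gene positions here) was 398, 321 and 344 CPM in the 3 CTRL sh libraries of LNCaP95, 159.8, 147 and 153 CPM with CPSF1 sh1, and 131, 146 and 132 CPM with CPSF1 sh2. All 6 knockdown libraries lay below the lowest control. *SLC2A1* fell by 59.3% (log2 fold change -1.30, SE 0.0717, adjusted p = 4.09e-08), and 0.978% of the genes tested in LNCaP95 had a lower fold change. In 22Rv1 the values were 118, 113 and 102.5 CPM with CTRL sh, 90.7, 89.5 and 95.6 CPM with CPSF1 sh1, and 82.0, 81.8 and 79.3 CPM with CPSF1 sh2. These groups were also separate, and *SLC2A1* fell by 22.4% in 22Rv1 (adjusted p = 0.00101).

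In LNCaP, *SLC2A1* was 118, 109 and 98.6 CPM with CTRL sh, 86.8, 95.5 and 89.4 CPM with CPSF1 sh1, and 108, 112 and 100.8 CPM with CPSF1 sh2. The CPSF1 sh1 libraries lay below the controls and the CPSF1 sh2 libraries among them. The pooled difference was not called (log2 fold change -0.12, 95% interval -0.28 to 0.04, adjusted p = 0.188). CPSF1 sh1 alone gave -0.24 (adjusted p = 0.00114) and CPSF1 sh2 alone -0.01 (interval -0.12 to 0.11).

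*SLC2A12* (chromosome 6, 134309835 to 134373774) had the deepest fall of the tested members. The LNCaP95 libraries held 34.1, 35.3 and 27.1 CPM with CTRL sh, 10.9, 10.0 and 9.58 CPM with CPSF1 sh1, and 5.15, 5.22 and 5.50 CPM with CPSF1 sh2. The 3 groups did not overlap, and the CPSF1 sh2 libraries were the lowest. *SLC2A12* fell by 75.6% with both hairpins pooled (log2 fold change -2.03, SE 0.205, adjusted p = 3.42e-06), and 0.126% of genes in LNCaP95 had a lower value. In LNCaP it was 86.0, 83.4 and 80.1 CPM with CTRL sh, 66.4, 67.8 and 67.0 CPM with CPSF1 sh1, and 54.4, 56.2 and 56.7 CPM with CPSF1 sh2. The same order of groups stood there at a smaller size, with a fall of 25.8% (adjusted p = 8.57e-05). In 22Rv1 the controls (22.4 to 25.8 CPM) overlapped the 6 knockdown libraries (17.5 to 23.9 CPM, median 19.9), and the difference was not called (log2 fold change -0.24, interval -0.46 to -0.03, adjusted p = 0.0817). It was called with CPSF1 sh1 alone (-0.31), with the hairpins averaged (-0.25) and without CPSF1 sh2 replicate 3 (-0.30), at adjusted p-values of 0.0342 to 0.0448. The span of *SLC2A12* overlaps *TBPL1* on the other strand, and counting was stranded.

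*SLC2A3* (chromosome 12, 8071826 to 8088871) did not pass the filter in any line, and so is given by its reads. The LNCaP95 libraries held 11.3, 11.1 and 8.97 CPM with CTRL sh, 2.25, 2.43 and 1.30 CPM with CPSF1 sh1, and 2.02, 2.28 and 1.44 CPM with CPSF1 sh2. All 6 knockdown libraries were far below the 3 controls, and with filterByExpr *SLC2A3* had a log2 fold change of -2.45 (SE 0.176, adjusted p = 2.61e-07), where 66.5% of 12997 genes were called. Its near-identical neighbour *SLC2A14*, with which it can share reads, had at most 0.798 CPM in LNCaP95. In LNCaP the libraries held 4, 5 and 0 counts of *SLC2A3* with CTRL sh, 8, 10 and 11 counts with CPSF1 sh1, and 7, 13 and 7 counts with CPSF1 sh2. Every knockdown library held more of these few counts than any control, and no test is given, since *SLC2A3* passed filterByExpr in LNCaP only through the knockdown libraries. The 4 leukocyte markers summed to 0.0838 to 0.0941 CPM with CTRL sh and 0.895 to 1.58 CPM with CPSF1 sh in LNCaP, with none above 2 CPM, and in LNCaP95 to 0 to 0.266 and 0.365 to 1.75 CPM, and their part in these values was not tested. In 22Rv1 no library held more than 1 count of *SLC2A3*.

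*SLC2A10* (chromosome 20, 45338126 to 45364965) was tested only in 22Rv1. It was 13.7, 15.4 and 13.7 CPM with CTRL sh, 16.8, 12.7 and 14.6 CPM with CPSF1 sh1, and 10.6, 10.4 and 10.6 CPM with CPSF1 sh2. Only the CPSF1 sh2 libraries lay apart from the controls. The pooled difference was not called (log2 fold change -0.18, interval -0.49 to 0.13, adjusted p = 0.387), while CPSF1 sh2 alone gave -0.44 (adjusted p = 0.00632). In LNCaP and LNCaP95 the libraries held 0 to 4 counts of *SLC2A10*, apart from LNCaP CPSF1 sh1 replicate 3 with 11 counts.

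The 4 SLC2A genes together, summed per length, were 44.5 ± 3.02 RPKM with CTRL sh, 36.9 ± 1.20 with CPSF1 sh1 and 38.1 ± 1.32 with CPSF1 sh2 in LNCaP. In LNCaP95 the sums were 94.1 ± 9.71, 39.2 ± 1.67 and 34.1 ± 2.09 RPKM, and in 22Rv1 34.8 ± 2.26, 29.2 ± 1.14 and 26.2 ± 0.554 RPKM. The summed level of LNCaP95 was thus the highest of the 3 lines with CTRL sh, and with CPSF1 sh2 it lay below that of LNCaP.

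The 2 lactate carriers were both lower in LNCaP while in LNCaP95 *SLC16A1* alone was called, and in 22Rv1 *SLC16A3* alone. *SLC16A1* (chromosome 1, 113454469 to 113499635), which encodes MCT1, was 337, 329.6 and 342 CPM in LNCaP with CTRL sh, 176, 196 and 181 CPM with CPSF1 sh1, and 185, 192 and 192 CPM with CPSF1 sh2. Every knockdown library was far below the lowest control. *SLC16A1* fell by 43.8% in LNCaP (log2 fold change -0.83, SE 0.0359, adjusted p = 2.09e-10). In LNCaP95 it was 398, 414 and 389 CPM with CTRL sh, 316, 334 and 338 CPM with CPSF1 sh1, and 253, 254 and 253 CPM with CPSF1 sh2. The 3 groups were separate there, and *SLC16A1* fell by 27.5% (log2 fold change -0.46, adjusted p = 0.000969). In 22Rv1 it ranged from 112 to 123 CPM with CTRL sh and from 102.5 to 118 CPM with CPSF1 sh (median 113), with overlap. No change was called in 22Rv1 (log2 fold change -0.06, interval -0.17 to 0.06, adjusted p = 0.456).

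*SLC16A3* (chromosome 17, 80186273 to 80219005) had the deepest falls outside LNCaP95. In LNCaP it was 22.5, 24.6 and 20.5 CPM with CTRL sh, 6.65, 8.32 and 7.93 CPM with CPSF1 sh1, and 5.36, 7.39 and 5.85 CPM with CPSF1 sh2. The knockdown libraries were all far below the lowest control. *SLC16A3* fell by 69.0% in LNCaP (log2 fold change -1.69, SE 0.118, adjusted p = 2.17e-08), and 0.306% of genes had a lower value. In 22Rv1, where its level was highest, it was 39.8, 38.5 and 37.1 CPM with CTRL sh, 17.7, 18.7 and 25.2 CPM with CPSF1 sh1, and 14.8, 16.3 and 15.1 CPM with CPSF1 sh2. It fell by 53.4% in 22Rv1 (log2 fold change -1.10, SE 0.124, adjusted p = 4.60e-05), and 0.162% of the genes tested had a lower value. In LNCaP95, where *SLC16A3* was weakly read, it was 1.15 to 1.83 CPM with CTRL sh and 0.721 to 2.39 CPM with CPSF1 sh, 13 to 22 and 8 to 31 counts per library, and filterByExpr called no change (log2 fold change 0.24, SE 0.305, adjusted p = 0.501). The gene shares its span with *AC132872.2* on the same strand and with *CSNK1D* on the other, so that reads of the first overlap could be lost or split in the authors' counting.

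Per length, the ratio of *SLC16A1* to *SLC16A3* with CTRL sh was 12.6 ± 1.37 for LNCaP, 231 ± 64 for LNCaP95 and 2.54 ± 0.209 for 22Rv1. With CPSF1 sh1 and CPSF1 sh2 this ratio was 20.4 ± 1.66 and 26.2 ± 3.81 in LNCaP, and 4.59 ± 1.09 and 6.25 ± 0.495 in 22Rv1. In these 2 lines the lowest knockdown library was above the highest control. In LNCaP95 the ratio rests on few *SLC16A3* reads and its groups overlapped.

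*BSG* (chromosome 19, 571297 to 583493), which encodes the carriers' chaperone basigin, moved the other way in LNCaP. It was 492, 483 and 481 CPM with CTRL sh, 592, 566 and 551 CPM with CPSF1 sh1, and 591, 548 and 539 CPM with CPSF1 sh2. All 6 knockdown libraries were above the controls, and *BSG* rose by 17.2% in LNCaP (log2 fold change 0.23, SE 0.0377, adjusted p = 9.72e-05). In LNCaP95 and 22Rv1 the groups overlapped and *BSG* was not called, at 0.09 (interval -0.02 to 0.20, adjusted p = 0.119) and 0.06 (interval -0.04 to 0.17, adjusted p = 0.355). In LNCaP95 it was called with CPSF1 sh2 alone (0.14, adjusted p = 0.00997), with the hairpins averaged (0.09, adjusted p = 0.0354) and with library size as the only scaling (0.18, adjusted p = 0.00382).

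*LDHA* (chromosome 11, 18415935 to 18429972) encodes the A subunit, which predominates in muscle and in glycolytic tumours. In LNCaP it was 1142, 1120 and 1074 CPM with CTRL sh, 779, 790.4 and 778.5 CPM with CPSF1 sh1, and 813, 849.6 and 853 CPM with CPSF1 sh2. The LNCaP95 libraries held 1599, 1646 and 1616 CPM with CTRL sh, 1074, 1094 and 1175 CPM with CPSF1 sh1, and 1002, 1015 and 1018 CPM with CPSF1 sh2. In 22Rv1 it was 717, 767 and 762 CPM with CTRL sh, 592, 582 and 654 CPM with CPSF1 sh1, and 548, 558 and 556 CPM with CPSF1 sh2. In each line the highest knockdown library was below the lowest control. *LDHA* fell by 26.5% in LNCaP (log2 fold change -0.44, SE 0.0382, adjusted p = 1.72e-07), by 34.7% in LNCaP95 (-0.61, SE 0.0516, adjusted p = 9.11e-07) and by 22.4% in 22Rv1 (-0.37, SE 0.0517, adjusted p = 0.000222).

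*LDHB* (chromosome 12, 21788276 to 21910791), which encodes the B subunit that predominates in heart, was lower in LNCaP and higher in LNCaP95. In LNCaP it was 509, 506 and 523 CPM with CTRL sh, 441, 448 and 471 CPM with CPSF1 sh1, and 471, 474 and 472 CPM with CPSF1 sh2. In LNCaP95 it was 322, 333 and 348 CPM with CTRL sh, 365, 368 and 383 CPM with CPSF1 sh1, and 401, 383 and 405 CPM with CPSF1 sh2. The knockdown libraries were thus all below the controls in LNCaP and all above them in LNCaP95. *LDHB* fell by 9.01% in LNCaP (log2 fold change -0.14, SE 0.0335, adjusted p = 0.00257) and rose by 14.4% in LNCaP95 (0.19, SE 0.0475, adjusted p = 0.00289). In 22Rv1 the controls (755 to 822 CPM) overlapped the knockdown libraries (717 to 768 CPM, median 748), and no change was called (-0.07, interval -0.16 to 0.01, adjusted p = 0.171).

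The ratio of *LDHA* to *LDHB* per length differed by line with CTRL sh and was lower with knockdown in each. It was 1.19 ± 0.0566 with CTRL sh, 0.950 ± 0.0362 with CPSF1 sh1 and 0.975 ± 0.0240 with CPSF1 sh2 in LNCaP. In LNCaP95 it was 2.67 ± 0.0973, 1.65 ± 0.0356 and 1.40 ± 0.0452, and in 22Rv1 0.525 ± 0.0172, 0.455 ± 0.0116 and 0.404 ± 0.00730. No knockdown library reached the lowest control of its line in any of the 3. The order of the lines, with LNCaP95 highest and 22Rv1 lowest, was the same in each arm.

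**Figure D3:**
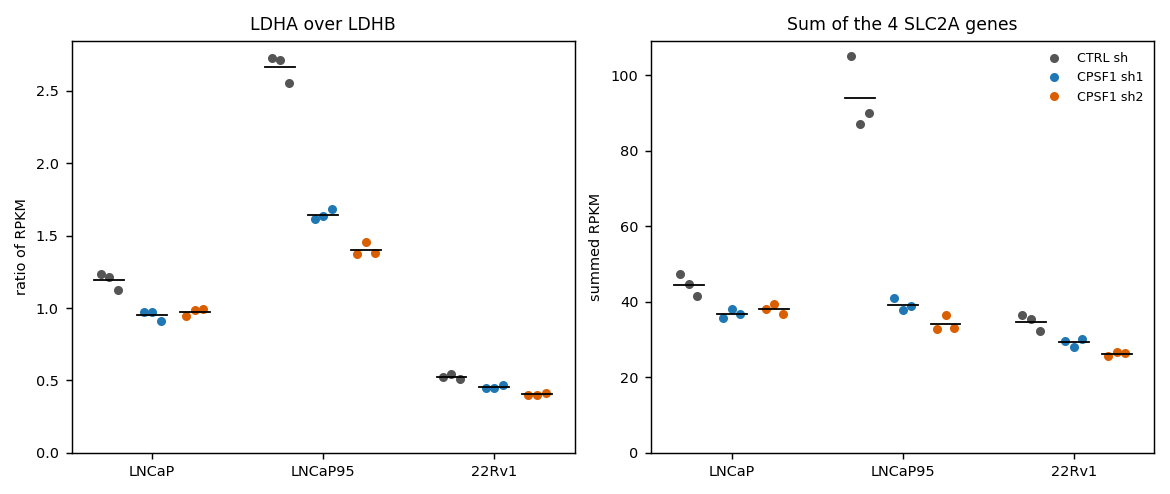
Ratio of *LDHA* to *LDHB* RPKM (left) and summed RPKM of *SLC2A1*, *SLC2A3*, *SLC2A10* and *SLC2A12* (right) in each of 27 libraries, with a bar at the mean of 3 and axes from 0. The mean ratio went from 2.67 to 1.40 in LNCaP95 between CTRL sh and CPSF1 sh2, and the mean sum from 94.1 to 34.1 RPKM.

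Groups that did not overlap were common among all genes. In LNCaP, 5 of the 7 tested members lay wholly below their controls and 1 wholly above, where 29.1% and 26.7% of all genes tested did. In LNCaP95 it was 4 below and 1 above of 6 tested, where 29.6% and 30.4% did, and in 22Rv1 3 below of 8, where 15.1% did. *SLC2A3*, which was not tested and is not in these counts, lay wholly above its controls in LNCaP and wholly below them in LNCaP95.

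Whether a change was seen with each hairpin was asked in fits with 3 groups per line, whose 2 contrasts share the CTRL sh libraries. In LNCaP, 5 members were lower with both hairpins (26.7% of all genes were) and 1 was higher with both (26.5%). In LNCaP95, 4 were lower with both (30.2%) and 1 was higher (29.6%). In 22Rv1, *SLC2A1*, *SLC16A3* and *LDHA* were lower with both (9.55%). For *LDHA* the log2 fold changes with CPSF1 sh1 and CPSF1 sh2 were -0.49 and -0.40 for LNCaP, -0.55 and -0.68 for LNCaP95, and -0.30 and -0.44 for 22Rv1. *SLC16A3* gave -1.53 and -1.84 in LNCaP and -0.91 and -1.32 in 22Rv1.

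**Figure D4:**
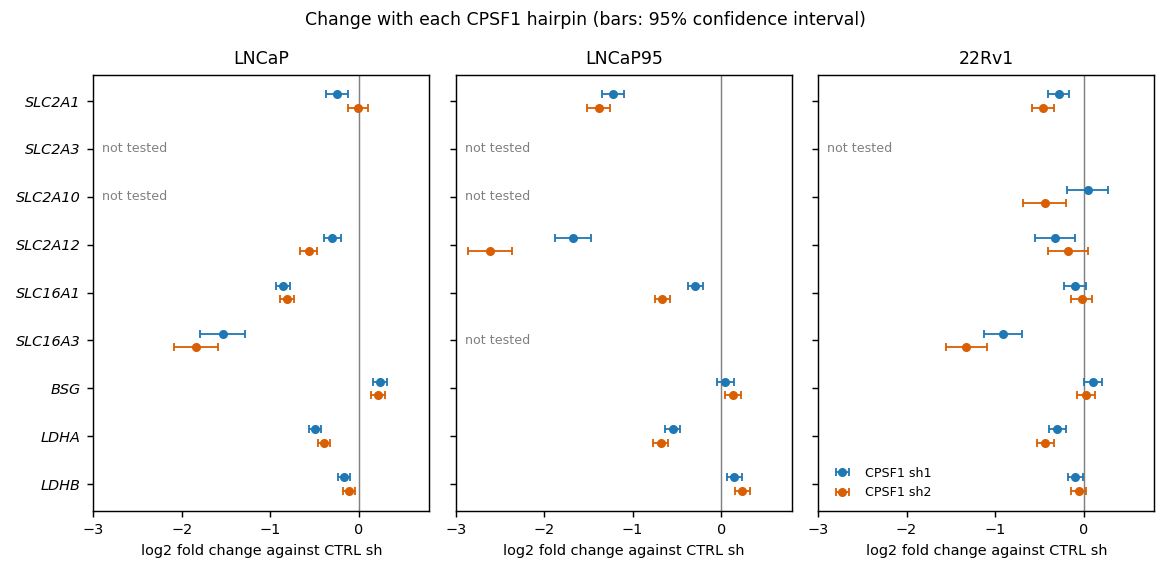
Log2 fold change of each gene with CPSF1 sh1 or CPSF1 sh2 against CTRL sh in each line, with 95% confidence intervals, for genes that passed 2 CPM in each library of a line. *SLC2A12* in LNCaP95 (-1.67 and -2.61) shows the widest gap between the hairpins, and *LDHA* lies left of 0 with both hairpins in each line.

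The hairpins were also compared directly. In LNCaP, 2 of 7 members differed between them, where 14.8% of all genes did. *SLC2A1* was higher with CPSF1 sh2 than with CPSF1 sh1 (log2 difference 0.24, SE 0.0579, adjusted p = 0.00873, or 0.0574 without LNCaP CPSF1 sh2 replicate 2), and *SLC2A12* was lower (-0.27, SE 0.0478, adjusted p = 0.0008). In LNCaP95, 3 of 6 differed, beside 34.1%, and each was lower with CPSF1 sh2. They were *SLC2A12* (-0.94, SE 0.138, adjusted p = 3.42e-05), *SLC16A1* (-0.37, SE 0.0401, adjusted p = 8.30e-07) and *LDHA* (-0.14, SE 0.0398, adjusted p = 0.0119, lost without LNCaP95 CPSF1 sh2 replicate 1 or CPSF1 sh1 replicate 3). In 22Rv1, 2 of 8 differed, beside 11.3%, and both calls were lost when single libraries were left out. *SLC16A3* (-0.41, SE 0.118, adjusted p = 0.0353) was lost in 7 of 9 such fits, all but those without CPSF1 sh1 replicate 1 or 2, and *SLC2A10* (-0.48, SE 0.115, adjusted p = 0.0143) without CPSF1 sh2 replicate 1 or 3.

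A difference in effect between lines was tested as an interaction over all 27 libraries, in which 6 members could be fitted. Here too, line and culture cannot be told apart where LNCaP95 is compared. Between LNCaP95 and LNCaP, 4 of the 6 effects differed, where 50.9% of all genes did. The effect on *SLC2A1* was more negative in LNCaP95 (log2 difference -1.16, SE 0.112, adjusted p = 1.12e-09), as was that on *SLC2A12* (-1.58, SE 0.194, adjusted p = 9.95e-08). Those on *SLC16A1* (0.39, adjusted p = 0.00258) and *LDHB* (0.35, adjusted p = 7.54e-06) were higher in LNCaP95. Between 22Rv1 and LNCaP, 1 of 6 differed, beside 40.4%, and this was *SLC16A1* (0.79, SE 0.108, adjusted p = 1.50e-06), which fell in LNCaP and was not called in 22Rv1.

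Between 22Rv1 and LNCaP95, 5 of 6 effects differed, where 53.7% of all genes did. *SLC2A1* (0.93), *SLC2A12* (1.77), *SLC16A1* (0.40) and *LDHA* (0.24, adjusted p = 0.00521) had the less negative effect in 22Rv1, and *LDHB* the lower one (-0.27). The *LDHA* difference was lost when scaled by library size alone (adjusted p = 0.0517). The effect on *LDHA* was not called different between LNCaP95 and LNCaP (-0.15, interval -0.30 to -0.01, adjusted p = 0.0762). It was called there with CPSF1 sh2 alone (-0.27, adjusted p = 9.70e-06), with filterByExpr (-0.19, adjusted p = 0.0351) and without LNCaP95 or 22Rv1 CPSF1 sh1 replicate 3 (-0.18 and -0.15). Between 22Rv1 and LNCaP it was not called either (0.09, interval -0.06 to 0.24), but was with CPSF1 sh1 alone (0.21, adjusted p = 0.0133). The effect on *BSG* was called in no pair (lowest adjusted p = 0.0688). It was called between 22Rv1 and LNCaP with CPSF1 sh2 alone (-0.18, adjusted p = 0.00782) or without 22Rv1 CPSF1 sh1 replicate 3 (-0.18, adjusted p = 0.0159), and between LNCaP95 and LNCaP with CPSF1 sh1 alone (-0.19, adjusted p = 0.022). With CPSF1 sh2 alone the effects on *SLC2A1* (-0.44, adjusted p = 0.00063) and *SLC2A12* (0.40, adjusted p = 0.00723) also differed between 22Rv1 and LNCaP. With filterByExpr the effect on *SLC16A3* was higher in LNCaP95 than in LNCaP (1.95, adjusted p = 1.99e-05, where 41.9% of genes differed), higher in 22Rv1 than in LNCaP (0.60, adjusted p = 0.0247, 34.9%) and lower in 22Rv1 than in LNCaP95 (-1.36, adjusted p = 0.00109, 44.6%). For *SLC2A3* the fitted log2 difference in effect between LNCaP95 and LNCaP was -4.06, with the LNCaP libraries at 0 to 13 counts. No p-value is given for it, since *SLC2A3* passed the filter of that fit through LNCaP95.

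The nearest gene downstream on the same strand was also read for each member, since *CPSF1* acts at the ends of genes. For *LDHA* this was *LDHC*, which encodes the testis lactate dehydrogenase and starts 3882 bases beyond the annotated end of *LDHA*. *LDHC* was at 0 counts in all 3 CTRL sh libraries of LNCaP and of LNCaP95. In LNCaP it had 4, 6 and 6 counts with CPSF1 sh1 and 23, 33 and 25 with CPSF1 sh2. In LNCaP95 it had 46, 36 and 27 counts with CPSF1 sh1 and 59, 56 and 46 with CPSF1 sh2. Every knockdown library thus held reads where no control did, and in each of these lines the CPSF1 sh2 libraries had the higher CPM. Such a gain was not limited to genes just downstream of a member. *SLC2A5* had a mean of 0.0572 CPM with CTRL sh and 1.26 with CPSF1 sh in LNCaP, and 0.118 and 2.86 in LNCaP95. In LNCaP, *SLC2A2* stayed at 0 and *SLC5A1* went from 1.45 to 0.281 CPM. The share of all genes near 0 in the controls that gained reads was not computed. Set against the 3 counts that an observed 0 allows over the 3 controls, the mean *LDHC* CPM of the 6 knockdown libraries was at least 15.2-fold higher in LNCaP and at least 42.4-fold higher in LNCaP95. This is not a bound for each hairpin, since LNCaP held 0.475 to 0.581 CPM with CPSF1 sh1 and 2.02 to 2.42 CPM with CPSF1 sh2. It also leaves out the error of the knockdown mean. These folds describe the counts and are not a test. No p-value is given, since *LDHC* could pass a filter only through the knockdown libraries. In 22Rv1 *LDHC* had 1 count in the 3 controls and 46 in the 6 knockdown libraries, which held 2 to 16 counts each.

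Counts per gene do not tell transcripts that start at *LDHC* from other RNA read across its exons, and *LDHC* is a close relative of *LDHA*, so that what these reads come from was not tested. They were few, at 2.07 to 5.42 CPM in the LNCaP95 knockdown libraries where *LDHA* was 1002 to 1175 CPM. For *BSG* the downstream gene was *HCN2*, 6400 bases away, which with filterByExpr was higher in LNCaP (2.70 to 6.57 CPM in the means, log2 fold change 1.28, adjusted p = 0.000225), lower in 22Rv1 (-0.34, adjusted p = 0.00759) and not called in LNCaP95 (0.02, adjusted p = 0.933). The other neighbours, 28082 bases or more away, were *CCDC23* (of *SLC2A1*), *SLC2A14* (*SLC2A3*), *EYA2* (*SLC2A10*), *SLC18B1* (*SLC2A12*), *PPM1J* (*SLC16A1*), *TEX19* (*SLC16A3*) and *GYS2* (*LDHB*). Calls of *LDHC* and *GYS2* are left out, since these passed the filter only through the knockdown libraries. In LNCaP *TEX19* was also higher, *CCDC23*, *SLC18B1* and *PPM1J* were lower, and *EYA2* was not called. In LNCaP95 *EYA2* and *TEX19* were higher, *PPM1J* was lower, and *CCDC23* and *SLC18B1* were not called. In 22Rv1 *CCDC23* and *SLC18B1* were also lower, and *PPM1J* and *TEX19* were not called. Over all genes, 61.9%, 66.5% and 27.9% were called in either direction with filterByExpr in LNCaP, LNCaP95 and 22Rv1. *LDHC* and *HCN2* were singled out after their values were seen, for their distance.

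A list of 36 related genes was read beside the members: other glucose transporters, other SLC16 carriers, other chaperones, sodium-coupled lactate carriers, other lactate dehydrogenases, the mitochondrial pyruvate carrier and the arrestin-domain proteins TXNIP and ARRDC4, which restrain glucose uptake. In LNCaP 18 of them passed the filter, of which 7 were higher and 7 lower, beside 31.1% and 31% of all genes. In LNCaP95 it was 9 higher and 5 lower of 17, beside 33.2% and 33.7%, and in 22Rv1 2 higher and 4 lower of 19, beside 12.7% and 14.3%. The median log2 fold change of those tested was -0.05, 0.38 and -0.10 in LNCaP, LNCaP95 and 22Rv1.

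The mitochondrial pyruvate carrier, whose 2 subunits bring pyruvate to the matrix instead of to lactate dehydrogenase, was higher in LNCaP and lower in the other lines. *MPC1* had log2 fold changes of 0.27, -0.43 and -0.46 in LNCaP, LNCaP95 and 22Rv1, and *MPC2* of 0.52, -0.32 and -0.31, all with an adjusted p-value below 0.05. *TXNIP* was lower in LNCaP (-1.35, adjusted p = 1.44e-09), higher in LNCaP95 (1.17, adjusted p = 5.11e-05) and not called in 22Rv1 (-0.12, adjusted p = 0.151). In LNCaP95, where *SLC2A1* fell most, *TXNIP* gave 1.44 with CPSF1 sh1 and 0.85 with CPSF1 sh2, and *SLC2A1* -1.22 and -1.38. A link between the 2 genes was not tested. *ARRDC4* was higher in LNCaP (0.18) and in LNCaP95 (1.67, adjusted p = 1.38e-08).

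Among other SLC2A genes, *SLC2A6* was higher in LNCaP (0.42) and LNCaP95 (0.57) and not called in 22Rv1 (0.24), and *SLC2A11* was higher in LNCaP95 (0.38) and 22Rv1 (0.38) and not called in LNCaP (-0.12). *SLC2A4*, which encodes the insulin-regulated GLUT4, was lower in LNCaP (-0.33) and LNCaP95 (-0.70), while in 22Rv1 its value was 0.34 (adjusted p = 0.0575, or 0.0347 with the hairpins averaged), and the effect in 22Rv1 was above that in LNCaP by 0.68 (adjusted p = 0.0171) and that in LNCaP95 by 1.04 (adjusted p = 0.000196). Of the other SLC16 genes, 1 was higher and 5 lower of 7 tested in LNCaP, 4 higher and 1 lower of 6 in LNCaP95, and 1 higher and 0 lower of 7 in 22Rv1. *SLC16A9* went from -0.26 in LNCaP to 0.74 in LNCaP95, and *SLC16A14* from -0.33 to 0.74, with 0.35 in 22Rv1. *SLC16A6* was higher in LNCaP (0.97) and LNCaP95 (0.79) and not called in 22Rv1 (-0.14). Of the 2 other chaperone genes, both relatives of *BSG*, *NPTN* was higher in LNCaP (0.46) and LNCaP95 (0.63) and not called in 22Rv1 (-0.07). *EMB* was lower in 22Rv1 (-0.39, adjusted p = 0.00165) and not called in LNCaP (-0.10) or LNCaP95 (0.18).

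After each line's mean was taken out, the log2 levels of the members were set beside those of 10316 other genes over the 27 libraries, as a description, since the libraries share their arms and depth. The genes most like *LDHA* were *BNIP3* (Pearson's r = 0.990), *ATF4* (0.981) and *PDK1* (0.970), which act in mitophagy, the response to amino acid stress and the block of pyruvate dehydrogenase. Those most like *SLC2A1* were *PSRC1* (0.954), *SRD5A3* (0.953) and *TSC22D3* (0.952), and those most like *SLC2A12* were *KDM7A* (0.972), *PLA2G16* (0.970) and *ANKH* (0.970). *SLC16A1* was most like *TOMM20* (0.971), *TMEM123* (0.969) and *AGO4* (0.959), *BSG* most like *TIMM13* (0.928), *DUS1L* (0.919) and *CAPNS1* (0.914), and *LDHB* most like *EXO1* (0.896), *POLE2* (0.871) and *ALX4* (0.870). Among the members themselves *SLC2A1* ran closest to *SLC2A12* (0.887) and *LDHA* (0.841), *BSG* ran against *SLC16A1* (-0.826), and *LDHB* was near 0 with *SLC16A1* (0.047).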

How the data were processed

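Poly(A) RNA from 27 libraries was made with a stranded TruSeq mRNA kit. The authors deposited raw read counts per gene, aligned to GRCh37 with HISAT2 2.1.0 and counted with reverse strand on the Ensembl annotation in Subread (2.0.3 in the submitters' processing notes; the study's methods give another version). How reads that map to several genes were counted is not given in the sources used here. Samples were grouped by their labels, and no column was left out.

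Genes that passed 2 CPM in each library of a fit were tested with edgeR 4.0.16 (R 4.3.3, limma 3.58.1) by its quasi-likelihood test, with TMM normalization and Benjamini-Hochberg adjustment over all genes tested at 0.05. The knockdown pooled 6 CPSF1 sh against 3 CTRL sh libraries within a line. The hairpins were fitted as 3 groups within a line, and interactions and CTRL sh levels over 27 libraries. SE is the fitted log2 fold change over the root of its F statistic, and intervals are 95%. Printed CPM and RPKM (per exon length in the deposited table) were TMM-normalized over all 27 libraries. Depth was 8515624 to 15904518 counts per library. The scripts were tested on simulated data.

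Named with values were the 9 members, *CPSF1*, those of 36 related genes that passed in 2 or more lines (1 of them is not reported here), and the 3 genes most alike to each member. The members and lists were chosen with earlier results of these data known. Alternatives were other scalings (library size alone, RLE), filterByExpr or no filter, DESeq2 1.42.0, the newer edgeR test, a fold threshold of 1.5, each hairpin alone, averaged hairpins, a replicate block, and leaving out each library.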

Additional observations from a re-analysis of the deposited data

Results flagged for a closer look

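In LNCaP95, the third CPSF1 sh2 library had 0.721 CPM of *SLC16A3*, on 8 counts, and lay apart from the other 5 knockdown libraries by 0.697 of their range. In 22Rv1, the third CPSF1 sh1 library had 25.2 CPM of *SLC16A3* and lay apart by 0.627 of the range, just past Dixon's limit for 6 libraries. Of 23 groups examined, chance alone would set about 1 in 20 apart if the 6 libraries of a group were alike. Each group mixes libraries of both hairpins, so that this rate need not hold. Without the 22Rv1 library the difference between the hairpins was -0.24 in place of -0.41 and was no longer called (adjusted p = 0.0994).

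The effect of knockdown differed between lines by the edgeR interaction for several genes, as log2 differences. From LNCaP to LNCaP95 it was -1.16 for *SLC2A1*, 0.39 for *SLC16A1*, -1.58 for *SLC2A12* and 0.35 for *LDHB*. From LNCaP to 22Rv1 it was 0.79 for *SLC16A1*. From LNCaP95 to 22Rv1 it was 0.93 for *SLC2A1*, 0.40 for *SLC16A1*, 1.77 for *SLC2A12*, 0.24 for *LDHA* and -0.27 for *LDHB*. With filterByExpr, *SLC16A3* gave 1.95 from LNCaP to LNCaP95, 0.60 from LNCaP to 22Rv1 and -1.36 from LNCaP95 to 22Rv1. *SLC2A3* gave -4.06 from LNCaP to LNCaP95, but passed that filter through LNCaP95 and had few counts in LNCaP, so that its call is not a test.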

How the results depend on the processing

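Over 120 results for single genes and 2703 alternative values, 2635 stayed on their side of the threshold, 28 lost the call and 40 gained one, and 92 of the 120 neither lost nor gained a call. No called value changed sign. Of the values not called, 22 (from 13 results) had the other sign, none more than 0.0652 from 0 on the log2 scale. With a further need for a change over 1.5-fold, the members called with knockdown went from 6 to 2 (LNCaP), 5 to 3 (LNCaP95) and 3 to 1 (22Rv1). The share of all genes over that threshold was not computed, so these counts cannot be read as many or few. With no filter, 4 members differed between the hairpins in 22Rv1 in place of 2. With filterByExpr, 7 effects differed between LNCaP95 and LNCaP in place of 4, where 41.9% of all genes did. Among the 7 was *SLC2A3*, which passed that filter through LNCaP95. Between 22Rv1 and LNCaP, 1 effect differed, with 2 under filterByExpr or no filter, 2 for CPSF1 sh1 by itself and 4 for CPSF1 sh2. In CTRL sh, 7 members differed between 22Rv1 and LNCaP in place of 4, and 8 between 22Rv1 and LNCaP95 in place of 5, under filterByExpr and under no filter. All 9 members entered those fits, and under filterByExpr 78.2% and 80.6% of all genes differed. The calls gained include *SLC2A10* and *SLC2A3*, which passed filterByExpr only through the line in which each was read, so that these calls are not tests.

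When each library was left out in turn, the members called with knockdown numbered 6 to 6 in LNCaP, 5 to 5 in LNCaP95 and 3 to 4 in 22Rv1, and with each hairpin 6 to 6, 5 to 5 and 3 to 3. Between the hairpins they numbered 1 to 3, 2 to 5 and 0 to 4. The 1 in LNCaP was without CPSF1 sh2 replicate 2, the 5 in LNCaP95 without CTRL sh replicate 1, and the 0 in 22Rv1 without CPSF1 sh2 replicate 1 or 3, where 7 of 9 libraries moved the count. Effects that differed numbered 4 to 5 (LNCaP95 against LNCaP), 1 to 2 (22Rv1 against LNCaP) and 5 to 5 (22Rv1 against LNCaP95), and CTRL sh levels 5 to 5, 4 to 4 and 4 to 5. With the hairpins averaged, *SLC2A1* in LNCaP (adjusted p = 0.0287), *SLC2A12* in 22Rv1 (0.0448) and *BSG* in LNCaP95 (0.0354) were called, and *SLC2A12* with CPSF1 sh1 in 22Rv1 (-0.32, adjusted p = 0.046) was not called in 8 of its alternatives. *BSG* with CPSF1 sh2 in LNCaP95 (0.13, adjusted p = 0.00918) was not called with filterByExpr, with no filter or without CTRL sh replicate 2. Differences between the hairpins that were not called became so for *SLC2A1* in LNCaP95 (6 alternatives) and 22Rv1 (3), *LDHA* in LNCaP (5) and 22Rv1 (2), and *BSG* (1) and *LDHB* (1) in LNCaP95. The causes were not tested.

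Whether the replicate numbers pair the libraries is not given by the labels and was not settled by their correlations. Same-numbered libraries of different arms correlated above 0.1 in 3, 3 and 1 of 9 pairs in LNCaP, LNCaP95 and 22Rv1 (-0.268 to 0.313). In 5, 2 and 3 of the 9 pairs this value was above those with the other numbers in the second arm. With the replicate block, knockdown calls numbered 6, 5 and 3, hairpin differences were 3, 3 and 2, differing effects 4, 1 and 5, and CTRL sh differences 4, 4 and 5. The CTRL sh difference of *SLC16A1* between LNCaP95 and LNCaP was not called under the block (adjusted p = 0.0627).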

Other observations

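A single LNCaP library, the third with CPSF1 sh1, held 11 counts of *SLC2A10*, where the other 8 LNCaP libraries held 0 to 4. *GYS2*, which encodes liver glycogen synthase and lies 30495 bases downstream of *LDHB* on the same strand, had 0 counts in the CTRL sh libraries of LNCaP and LNCaP95 and 22 and 23 counts over the 6 knockdown libraries of each. In 22Rv1 it had 2 counts with CTRL sh and 63 with CPSF1 sh. Counts per gene do not tell transcripts that start at *GYS2* from other RNA read across its exons, and no p-value is given, since *GYS2* passed the filter only through the knockdown libraries. It was named after its values were seen. The share of all genes near 0 in the controls that gained reads was not computed.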
